A study of Aspergillus nidulans with 8 samples.

Results

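The genes described here had lower transcript signals on day 10 of culture than on day 4 on every medium tested. The genes were chosen by these measured values. A gene was included when day 10 minus day 4 was -1 or lower (at least 2-fold lower) on the log2 scale in all 3 media, in the authors' deposited table of log2 signals. This rule took 251 of 11127 genes (2.26%). The mirror rule, 1 or higher in all 3 media, took 104 genes (0.935%). Because day 10 minus day 4 chose the genes, those differences are given as a description and carry no test. Per the labels, the RNA came from mycelium of Aspergillus nidulans, a filamentous fungus, kept in darkness on agar plates that were each stabbed at several points. CYAs and CYA colonies were sampled after 4, 8 and 10 days and YES colonies after 4 and 10 days, on 8 arrays in all and a single array for each medium at each day. The labels give the media by these short names only (the titles of both YES samples spell it YESs, and other labels of those samples YES), name no strain or genotype, and do not say whether a sample pooled several colonies. Whole colonies were scraped off the agar, so each sample mixes the growing edge, the older centre and any spores or fruiting bodies. Fewer cells of a type and less RNA per cell cannot be told apart in such samples.

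A fungal colony grows at its edge, where hyphae build new wall and membrane, while the older centre runs out of nutrients, forms spores and fruiting bodies, and recycles its own material. Wall assembly uses glucan-remodelling enzymes, chitin-degrading enzymes and secreted polysaccharides. Membrane growth uses ergosterol, the main fungal sterol, built from acetyl units through isoprenoid intermediates. Filamentous fungi also make secondary metabolites, and the genes for one such compound often lie side by side on a chromosome.

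The arrays carried 1 to 3 probes per gene, and 245 of the 251 genes had 3 probes. Each array had 10878 to 11114 genes well above background and no saturated spot, and this held for each of the 251 genes on every array. The number of arrays limits the precision. The arrays lay on 2 slides, with both YES arrays and CYA days 4 and 8 on slide 1 and the CYAs arrays and CYA day 10 on slide 2. Day 10 minus day 4 therefore lies within a slide on CYAs and on YES, and it crosses slides on CYA. One array stood apart in its relation to another. For the 163 genes whose CYA day 8 signal exceeded CYAs days 4 and 10 at least 16-fold, the CYAs day 8 signal was a nearly constant part of it, with a median of 0.219 and quartiles of 0.2 and 0.231. Whether the CYAs day 8 sample held RNA of the CYA day 8 sample was not tested, and this bears on every CYAs day 8 value below. None of the 251 genes was among those 163, and 241 of them were lower on CYA day 8 than on CYAs day 4. Markers of other cell types in the colony also moved with day. The log2 of the summed signal of 7 conidium (asexual spore) markers was 16.73, 16.18 and 16.62 on CYAs days 4, 8 and 10, 16.70 and 11.90 on YES days 4 and 10, and 14.74, 12.04 and 12.07 on CYA days 4, 8 and 10. The same sum for 5 markers of fruiting bodies and Hülle cells, which surround the fruiting body, was 13.48, 16.30 and 15.02 on CYAs, 13.55 and 13.66 on YES, and 14.23, 18.18 and 17.65 on CYA. The conidium sum was thus nearly level on CYAs and lower with age on YES and CYA. Day 10 minus day 4 had medians of 0.08, -1.79 and -0.91 over the conidium list on CYAs, YES and CYA. In the fruiting body list AN7349 had the highest signal on days 8 and 10 of CYAs and CYA. It differed by 6.78, 4.93 and 7.51 between days 4 and 10 on CYAs, YES and CYA. On the day 4 arrays and YES day 10 the highest of that list was AN3152 (nsdD). The medians of that list were 0.21, -0.52 and -0.11, with AN1848 and AN5170 lower in every medium. None of these 12 markers was among the 251 genes. Every marker of both lists was well above background on all 8 arrays, and their part in the results was not tested.

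On all 3 media the median of the genes lay above that of all genes on day 4 and below it on day 10. The median level of the 251 genes was 11.88, 11.03 and 9.54 on CYAs days 4, 8 and 10. On YES it was 11.93 on day 4 and 8.84 on day 10, and on CYA it was 11.25, 8.53 and 8.49 on days 4, 8 and 10. The median over all genes stayed between 9.66 and 9.69 on every array. The late YES and CYA arrays thus had the lowest medians, and CYAs day 8 lay between its day 4 and day 10.

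**Figure D1:**
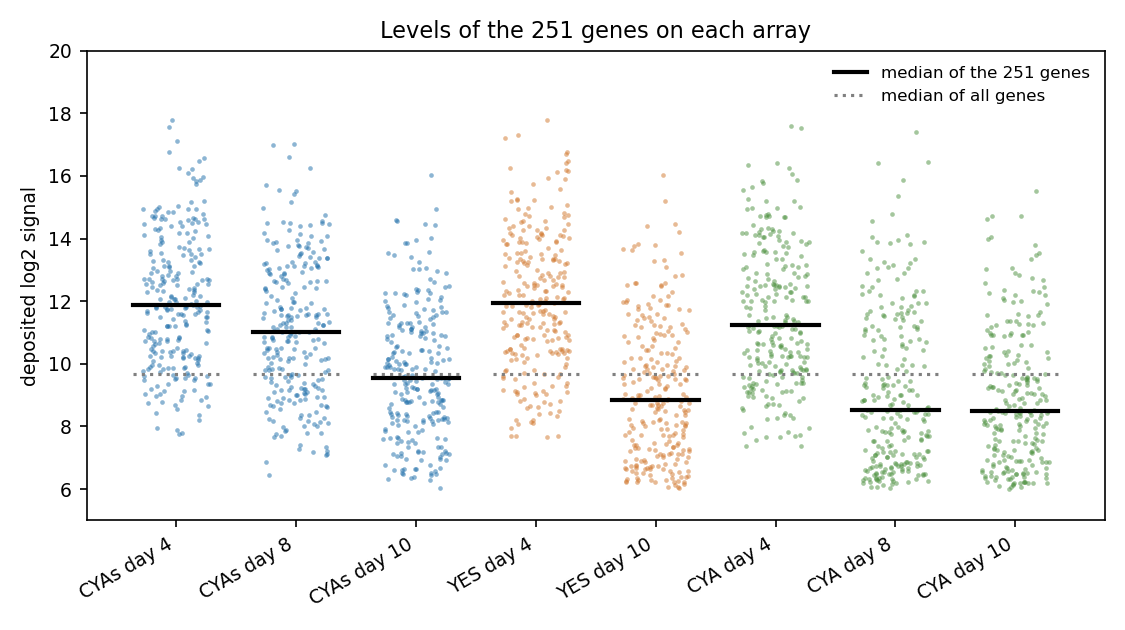
Deposited log2 signal (vertical axis) of each of the 251 genes (points) on each of the 8 arrays (horizontal axis), with the median of the 251 genes as a black bar and the median of all genes as a dotted bar. The medians of the 251 genes run from 11.25 to 11.93 on the day 4 arrays and from 8.49 to 9.54 on the day 10 arrays, while the median of all genes stays near 9.67.

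The size of the difference varied between media and between genes. Its median was -1.84 on CYAs (25th to 75th percentile -3.02 to -1.47), -2.47 on YES (-3.81 to -1.76) and -2.21 on CYA (-3.22 to -1.48), which are 3.58-, 5.52- and 4.63-fold. Over all 11127 genes the median difference was 0.00, -0.04 and 0.08, and the share of genes at -1 or lower was 6.44% on CYAs, 12.4% on YES and 10% on CYA. The share at 1 or higher was 8.11% on CYAs, 13.3% on YES and 8.55% on CYA. The largest difference of the 3 media was on YES for 123 of the 251 genes, on CYA for 69 and on CYAs for 59. In all 3 media 70 genes were lower by 2 or more, 23 by 3 or more and 9 by 4 or more, while 120 genes had at least 1 medium between -1.5 and -1. Nearest inside the threshold were AN8093 (-1.008 on CYAs), AN11541 (-1.002 on YES) and AN0053 (-1.0 on CYA). Nearest outside were AN1128, AN0067 and AN3059, whose smallest differences were -0.997, -0.996 and -0.995. The values just inside and just outside thus differ by under 0.02.

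The probes of a gene were read on the same arrays that the rule used. The counts below therefore describe agreement between probes and scalings, and they are not separate support for the differences. Of 745 probes of the 251 genes, 730 were lower on day 10 than on day 4 in all 3 media in the scanner values, and in 236 genes all probes were. Between probes of the same gene the difference had a median SD of 0.18 on CYAs, 0.17 on YES and 0.29 on CYA. In the scanner values scaled to each array's 75th percentile, 236 of the 251 genes met the same rule, and 214 did after background correction and quantile normalization of the scanner signals.

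Symbols in the reference annotation were available for 20 of the 251 genes (7.97%) and for 780 of all genes (7.01%). Roles are given below as they are known for the named gene or, where stated, for its namesake in other fungi. All 20 were higher on each day 4 array than on the day 10 array of the same medium, which the rule fixes.

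The 20 genes are ordered below by role, as a description, since no list of these roles was counted over all genes. The first 7 are known to act, or are named after proteins that act, at the cell wall or outside the cell. The gene with the largest difference among them was aspf34 (AN8333), named after an Aspergillus fumigatus allergen that is a cell wall protein. It stood at 17.12, 14.50 and 11.48 on CYAs days 4, 8 and 10, at 15.27 and 9.04 on YES days 4 and 10, and at 15.87, 10.91 and 11.36 on CYA days 4, 8 and 10. Day 10 was thus lower than day 4 by 5.64 on CYAs, 6.23 on YES and 4.51 on CYA, which is 49.9-, 75.1- and 22.8-fold. The gene bgt2 (AN7950), whose namesake in A. fumigatus encodes a glucanosyltransferase that remodels wall glucan, had nearly equal differences of -2.69, -2.52 and -2.50 on CYAs, YES and CYA. Its levels were 14.96, 13.57 and 12.27 on CYAs, 14.57 and 12.05 on YES, and 14.42, 11.86 and 11.92 on CYA, so CYA day 8 was already at the day 10 level. The chitinase gene chiA1 (AN8241) stood at 9.02, 8.09 and 7.33 on CYAs, 9.05 and 6.92 on YES, and 8.42, 7.03 and 7.26 on CYA. The pectin methylesterase gene pmeA (AN3390), for an enzyme that acts on plant wall pectin, stood at 10.80, 8.46 and 6.04 on CYAs, 10.11 and 6.30 on YES, and 9.97, 6.34 and 6.07 on CYA. Its day 10 levels lay close together on the 3 media, but at or near the bottom of the values. The lowest day 10 values among all genes chosen by the rule were 6.04, 6.02 and 5.99 on CYAs, YES and CYA. Whether a lower limit of the signal scale made the pmeA levels alike, or limited its differences, was not tested. The genes aspf4 (AN3804) and aspf13 (AN6273), named after further A. fumigatus allergens, differed by -3.08 and -2.51 on CYAs, -3.30 and -4.23 on YES and -1.87 and -2.53 on CYA. On CYA aspf4 was lowest on day 8 (9.22) and stood at 11.02 on day 10.

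Another group of neighbours holds agd3 (AN2954), whose namesake in A. fumigatus encodes a deacetylase of galactosaminogalactan, a sticky polysaccharide of the hyphal surface. It stood at 13.12, 12.63 and 10.36 on CYAs, 13.01 and 9.12 on YES, and 12.44, 9.01 and 9.32 on CYA. AN2951 and AN2952, close to it in locus tag order, were also among the 251 genes. AN2951 stood at 14.65, 13.15 and 9.80 on CYAs, 14.61 and 9.61 on YES, and 14.10, 8.99 and 9.51 on CYA, so its differences were -4.85, -5.0 and -4.59. The gene between them, AN2953, missed the threshold on CYAs alone, with -0.96, -1.42 and -1.16 on CYAs, YES and CYA.

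The next 3 genes belong to the sterol and isoprenoid route. The gene erg13 (AN4923), for the enzyme that makes hydroxymethylglutaryl-CoA, stood at 11.99, 11.96 and 10.16 on CYAs, 12.67 and 10.34 on YES, and 11.17, 9.85 and 9.99 on CYA. The gene erg20 (AN8012), for farnesyl pyrophosphate synthase, differed by -1.83 on CYAs, -1.67 on YES and -1.98 on CYA. The gene erg24B (AN4094), for a sterol reductase later in the route, differed by -1.33, -2.99 and -1.12. On CYAs day 8 erg13 and erg20 were within 0.2 of their day 4 levels, at differences of -0.03 and -0.19, and erg24B at -0.25, whereas on CYA day 8 they were lower by 1.32, 1.59 and 0.72.

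The gene aclA (AN2435) is named for ATP citrate lyase, which makes cytosolic acetyl-CoA, the building block of sterols and fatty acids. It stood at 15.21, 13.96 and 12.19 on CYAs, 15.01 and 13.54 on YES, and 13.95, 13.10 and 12.09 on CYA. Its neighbour AN2436 differed by -2.87 on CYAs, -0.49 on YES and -1.15 on CYA and was not included. The citrate synthase gene cit1 (AN8275) and cox5b (AN4525), for a subunit of cytochrome c oxidase, had even and smaller differences. They were -1.55, -1.5 and -1.68 for cit1 and -1.65, -1.65 and -1.87 for cox5b on CYAs, YES and CYA. For both, CYA day 8 (13.17 and 13.07) lay between day 4 (13.89 and 14.06) and day 10 (12.20 for each). The gene frdA (AN10296) differed by -4.10, -4.47 and -4.29, with CYAs day 8 (11.56) near day 4 (12.19) and CYA day 8 (7.21) near day 10 (7.68). The gene ugp1 (AN9148), for the enzyme that makes UDP-glucose, a wall precursor, stood at 11.79, 11.67 and 9.72 on CYA days 4, 8 and 10, so its CYA day 8 level stayed near day 4.

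The nitrite reductase gene niiA (AN1007), for the second step of nitrate use, stood at 10.38, 9.37 and 6.65 on CYAs, 8.82 and 7.65 on YES, and 9.25, 6.81 and 6.90 on CYA. Its neighbours niaD (AN1006, nitrate reductase) and crnA (AN1008, a nitrate transporter) were lower on day 10 on CYAs (-4.19 and -3.88) and CYA (-3.62 and -2.76). On YES niaD differed by -0.50 and crnA was higher by 1.56, so only niiA of the 3 was included. On YES niaD stood at 7.12 on day 4 and 6.62 on day 10.

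The remaining named genes have regulatory or metabolite roles. The gene tmpA (AN0055), for a membrane flavoprotein that acts in asexual spore formation, stood at 10.67, 9.58 and 8.07 on CYAs, 12.77 and 9.58 on YES, and 10.99, 8.83 and 8.58 on CYA. The gene fbx15 (AN2505), for an F-box protein, differed by -1.24, -2.17 and -3.25 on CYAs, YES and CYA. The gene nrps1 (AN1242), for a nonribosomal peptide synthetase, differed by -1.29, -2.15 and -1.03, and its neighbour AN1241 was also included. The gene tpcI (AN10023), named after a gene of the trypacidin cluster of A. fumigatus, stood at 10.42 on CYAs day 4, 14.12 on YES day 4 and 12.50 on CYA day 4, and between 9.35 and 9.85 on the 3 day 10 arrays. Its media thus differed on day 4 and lay close together on day 10.

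**Figure D2:**
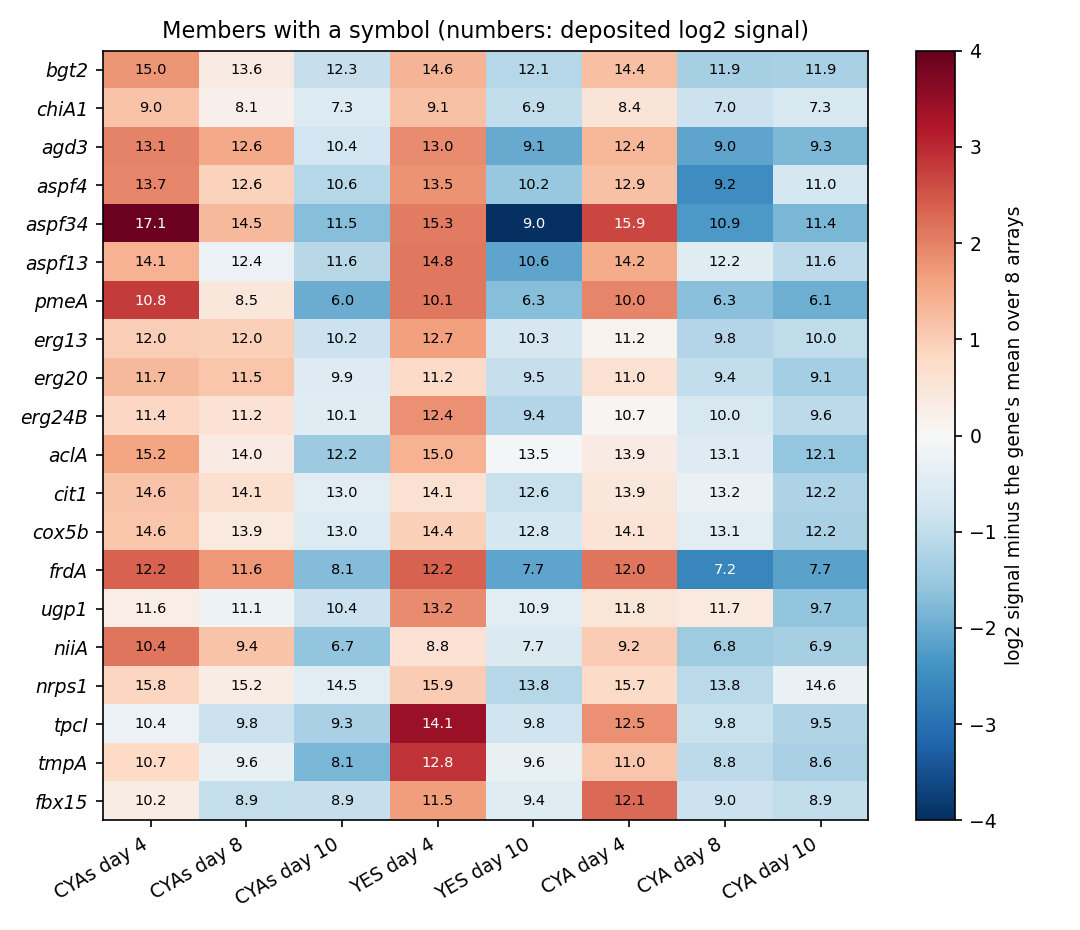
The 20 genes of the list with a symbol (rows) on the 8 arrays (columns), coloured by log2 signal minus the gene's mean over the 8 arrays (scale limited to -4 to 4), with the deposited log2 signal printed in each cell. CYAs day 8 stays nearer to day 4 for most rows (erg13 at 11.96 against 11.99), and CYA day 8 nearer to day 10 (bgt2 at 11.86 against 11.92).

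Among genes without a symbol, those whose smallest difference of the 3 media was largest were AN4135, AN11584, AN2951 (levels given above), AN5397, AN8544, AN7378, AN8907 and AN5056. AN4135 stood at 14.71, 13.09 and 8.44 on CYAs, 14.10 and 8.11 on YES, and 12.22, 7.12 and 6.35 on CYA, so its differences were -6.27, -5.99 and -5.87. AN11584 had the largest difference of the list on CYA (-8.64), with -4.98 on CYAs and -7.03 on YES. AN8907 differed by -4.01, -7.33 and -6.44, AN5397 by -5.25, -4.42 and -6.27, and AN7378 by -5.74, -4.05 and -5.93 on CYAs, YES and CYA. AN8544 differed by -6.25, -7.73 and -4.39, but its probes disagreed, with an SD of 4.92 between probes on CYAs. The rule for high day 4 signals named AN7217, AN7914, AN4888 and AN1160 beside aspf34. AN7914 stood at 17.55, 16.99 and 14.01 on CYAs, 17.32 and 15.19 on YES, and 17.53, 14.55 and 13.99 on CYA. AN4888 stood at 16.56, 15.55 and 12.28 on CYAs, 16.76 and 13.62 on YES, and 16.34, 15.36 and 13.03 on CYA, so its day 8 level was lower than day 4 by 1.01 on CYAs and 0.98 on CYA, with most of the difference after day 8. AN1160 differed by -3.81, -4.84 and -3.18, and AN7217, whose probes disagreed on CYAs, by -1.76, -1.74 and -2.05.

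The day 8 arrays were not used by the rule, but they share their day 4 arrays with it, so their differences are also a description. On CYA most of the difference was present by day 8, and on CYAs a smaller share of it was. CYA days 4 and 8 lie on slide 1 and CYA day 10 on slide 2, while the CYAs arrays share slide 2. The CYAs share also rests on the CYAs day 8 array set apart above. The part of slide and of that array in this contrast was not tested. On CYAs 103 of the 251 genes (41%) were lower by 1 or more on day 8 than on day 4, against 2.35% of all genes, and on CYA 199 (79.3%) were, against 14% of all genes. Both media had this in 84 genes. The median difference of day 8 from day 4 was -0.86 on CYAs (25th to 75th percentile -1.32 to -0.49) and -2.33 on CYA (-3.36 to -1.19), against -0.10 and -0.02 over all genes. As a share of each gene's difference between days 4 and 10, the median reached by day 8 was 0.42 on CYAs (25th to 75th percentile 0.26 to 0.60) and 0.99 on CYA (0.60 to 1.19). Genes that were lower by 1 or more on day 10 in that medium without belonging to the 251 had medians of 0.46 on CYAs (466 genes) and 0.95 on CYA (864 genes). These were chosen on the same arrays, and their difference from the 251 genes was not tested. On CYAs 246 of the 251 genes still stood higher on day 8 than on day 10, by 1 or more in 137. On CYA 131 stood higher on day 8 than on day 10 and 120 lower, with 49 higher by 1 or more and 33 lower by 1 or more. The CYA genes therefore had no common direction between days 8 and 10, a pair that crosses slides. Between CYA day 8 and YES day 10, both on slide 1, the median difference over the 251 genes was -0.07, with 110 genes higher and 141 lower on CYA day 8, so the genes went both ways.

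**Figure D3:**
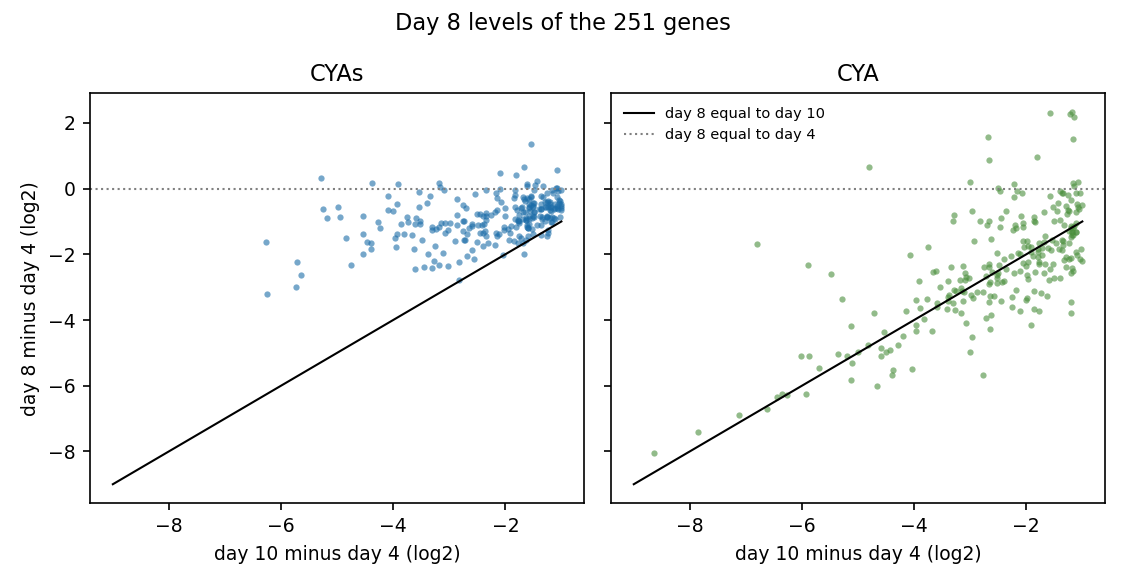
Day 8 minus day 4 (vertical axis, log2) against day 10 minus day 4 (horizontal axis, log2) for the 251 genes (points) on CYAs and on CYA. On the solid line day 8 equals day 10, and on the dotted line it equals day 4. Of the CYAs points 246 lie above the solid line, whereas the CYA points lie on both sides of it, 131 above and 120 below.

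A minority of the list departed from this course by standing higher on day 8 than on day 4, 17 genes on CYAs (6.77%, against 39% of all genes) and 15 on CYA (5.98%, against 48.1%). AN5430 did so on both media. It stood at 12.70, 14.07 and 11.17 on CYAs, 16.42 and 14.41 on YES, and 14.16, 16.45 and 12.58 on CYA, so it peaked on day 8. AN0468 also did so on both, with 12.97, 13.63 and 11.30 on CYAs and 12.49, 14.77 and 11.27 on CYA. Both genes were among the 10 of the 251 that were higher on CYA day 8 than on CYAs day 4. The possible CYA day 8 RNA in the CYAs day 8 sample bears on their CYAs day 8 levels, and its part was not tested. AN5480 (15.19, 17.39 and 14.05), AN4913 (9.63, 11.95 and 8.44) and AN4148 (10.24, 11.80 and 7.56) were higher on day 8 on CYA. The AN4913 probes disagreed in direction between days 4 and 10 on CYA. AN5056 stood at 15.21, 15.86 and 10.41 on CYA, so its whole difference lay between days 8 and 10. At the other end, day 8 was lowest against day 4 on CYA for AN11584 (14.78, 6.73 and 6.14), AN7893, AN7902 (14.06, 7.17 and 6.93), AN7897 (13.52, 6.81 and 6.90) and AN8907. On CYAs it was lowest for AN8544, AN7378, AN11985, aspf34 and AN3496. AN11985 stood at 14.53, 11.76 and 11.71 on CYAs but at 12.00, 12.19 and 10.92 on CYA, so on CYA it still stood at its day 4 level on day 8. Over the 8 arrays, the Pearson correlation of a gene with the mean profile of the 251 genes, which includes the gene itself and the arrays of the rule, had a median of 0.89 and was above 0.9 for 116 genes. Among the 251 genes it was lowest for AN5430 (0.14), AN0468 (0.41), AN7173 (0.41), AN5480 (0.44) and AN0878 (0.46).

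Some of the genes were neighbours. In locus tag order, 48 of the 251 genes lay in 17 runs of at least 2 members, and 26 of them in 6 runs of at least 3. Runs were not counted for other sets of genes, so whether these counts are high was not tested. The longest run was AN7893 to AN7899 (7 genes, which span 9 in the reference order), and AN7902 and AN7903 nearby were members too. AN7900 and AN7901, between them, were not, with -0.85 and -0.53 on CYAs. On day 4 the median of the 7 genes was 9.86 on CYAs, 13.16 on YES and 13.59 on CYA, and on day 10 it was 7.11, 7.41 and 7.26. The medians of the media thus differed on day 4 and lay close together on day 10. On day 10 they were near or below the 25th percentiles of the 251 genes (8.21, 7.25 and 7.18). Whether a lower limit of the signal scale made them alike was not tested. AN7893 stood at 9.54, 9.23 and 6.67 on CYAs, 13.37 and 6.57 on YES, and 14.21, 6.79 and 6.35 on CYA. AN7895 kept its level longer on YES (16.18 and 14.20) and on CYA day 8 (15.54, 13.85 and 8.75 on days 4, 8 and 10). The probes of AN7894, AN7899 and AN7903 disagreed in direction.

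The run AN3252 to AN3257 (6 genes) had day 4 medians of 11.96, 11.81 and 11.72 on CYAs, YES and CYA. Its day 10 medians were 10.55, 7.29 and 7.55, and CYA day 8 stood at 6.66. Here the media were alike on day 4 and differed on day 10, the reverse of the AN7893 run. The run AN3225 to AN3228 (4 genes) was higher on CYAs, with medians of 12.63, 12.67 and 9.17 on days 4, 8 and 10, against 10.01 and 6.52 on YES and 8.74, 6.49 and 6.82 on CYA. On CYAs its whole difference therefore lay between days 8 and 10. The runs of 3 genes were AN7214 to AN7217, AN7874 to AN7876 and AN8367 to AN8369. In the reference order the first of these spans 6 genes, so its members are near one another but not adjacent. AN7874 to AN7876 had medians of 10.12, 6.33 and 8.91 on CYA days 4, 8 and 10, so they were lowest on day 8. AN8367 to AN8369 had medians of 12.60, 11.25 and 10.23 on CYAs, 11.03 and 8.51 on YES, and 10.84, 8.55 and 9.05 on CYA.

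**Figure D4:**
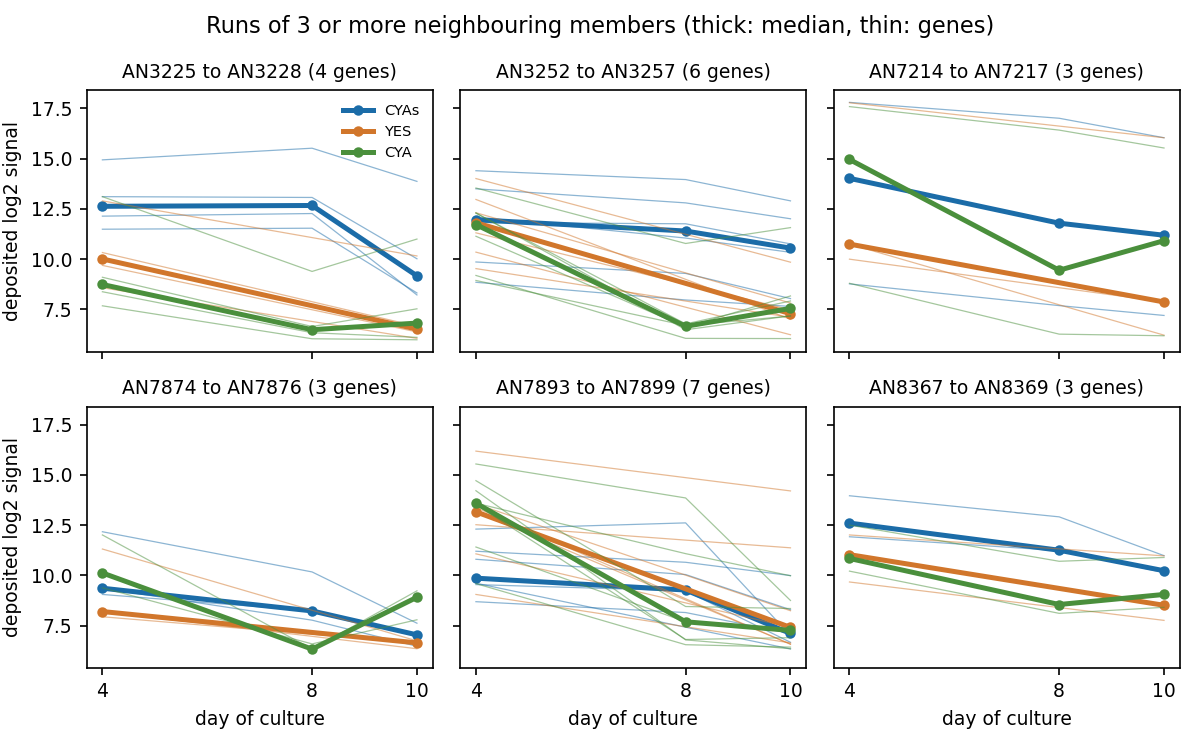
Deposited log2 signal (vertical axis) by day of culture (horizontal axis) for the 6 runs of at least 3 neighbouring members, with each gene as a thin line and the run's median per medium as a thick line with points. The AN7893 run starts at 9.86 on CYAs and at 13.16 and 13.59 on YES and CYA and ends between 7.11 and 7.41, while the AN3252 run starts between 11.72 and 11.96 and ends at 10.55 on CYAs and at 7.29 and 7.55 on YES and CYA.

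The reference matched 241 of the 251 genes and 10421 of all genes to a chromosome. Chromosome II held 57 of the matched members (23.7%) and 13.5% of all matched genes, and chromosome VI held 41 (17%) and 11%. Chromosomes VIII (11.2% of members and 16.8% of genes) and I (8.3% and 12.6%) held fewer. The runs of 7 and of 6 genes lie on chromosomes II and VI. The median length of the matched genes was 1337 bases, against 1536 over all genes.

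Differences between media were not used by the rule and were tested. The question was whether the 251 genes also differed between media at equal age. Limma fitted medium and day as additive factors on all 8 arrays and all genes. On average over days the genes were higher on CYAs than on CYA, by a median of 0.95 in the fit (214 higher, 37 lower), against -0.03 over all genes. On YES they were higher than on CYA by a median of 0.53 (201 higher, 50 lower) and lower than on CYAs by a median of -0.42 (82 higher, 169 lower). No single gene passed. Limma called 0 of the 251 genes in each contrast at a Benjamini-Hochberg adjusted p under 0.05, where 0% of the 11109 genes tested were called, and the smallest adjusted p among the members was 0.117 for CYAs against CYA, 0.398 for YES against CYA and 0.143 for YES against CYAs. At an unadjusted p under 0.05 there were 103, 45 and 62 members (41%, 17.9% and 24.7%), against 9.04%, 8.47% and 14.1% of the genes tested. The rule asks for a difference of -1 or lower in every medium, so it bears on the arrays that this fit uses. Its effect on the residual spread that the fit sets a medium difference against was not measured. These shares therefore cannot be read as support. With slide as a block the counts were 33, 32 and 12 members (714, 406 and 408 of all genes), and with slide as a random block, at an estimated correlation of 0.745, they were 58, 48 and 19 (962, 814 and 562 of all genes).

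In the fit 119 of the 251 genes (47.4%) were higher on CYAs than on CYA by 1 or more, against 5.27% of all genes, and 2 (0.797%) were lower by 1 or more, against 4.12%. For YES against CYA the counts were 66 higher (26.3%, against 6.56%) and 10 lower (3.98%, against 5.62%), and for YES against CYAs 22 higher (8.76%, against 9.15%) and 84 lower (33.5%, against 9.21%). By day, CYAs minus CYA had a median of 0.57 on day 4, 1.77 on day 8 and 0.64 on day 10, and only the last pair lies within a slide. YES minus CYA had medians of 0.48 on day 4, within slide 1, and 0.16 on day 10. The day 8 pair thus held the widest gap between CYAs and CYA, and without either day 8 array the fitted median was 0.59. By the same measure YES minus CYAs had medians of -0.18 on day 4 and -0.43 on day 10, and no such pair lies within a slide. With slide as a block, which the CYA arrays on both slides allow, the median of that contrast was 0.03, so its direction did not hold. Single-day counts of members at 1 or higher for CYAs minus CYA were 79 on day 4 (31.5%, against 4.11% of all genes), 177 on day 8 (70.5%, against 10.3%) and 92 on day 10 (36.7%, against 8.5%). At -1 or lower they were 24 on day 4 (9.56%, against 5.97%), 11 on day 8 (4.38%, against 10.5%) and 13 on day 10 (5.18%, against 6.61%). For YES minus CYA they were 82 at 1 or higher on day 4 (32.7%, against 5.46%) and 51 on day 10 (20.3%, against 13.1%), and 20 at -1 or lower on day 4 (7.97%, against 6.48%) and 33 on day 10 (13.1%, against 12.3%). For YES minus CYAs they were 45 at 1 or higher on day 4 (17.9%, against 5.63%) and 26 on day 10 (10.4%, against 13.8%), and 49 at -1 or lower on day 4 (19.5%, against 4.38%) and 79 on day 10 (31.5%, against 14.4%). The share of members higher on CYAs than on CYA by 1 or more thus lay above that of all genes on all 3 days. On day 4 members exceeded the share of all genes in both directions, for CYAs against CYA and for YES against CYAs. The day 4 and day 10 arrays of these pairs were used by the rule. Its effect on the fitted and single-day shares was not measured, so these shares too cannot be read as support.

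**Figure D5:**
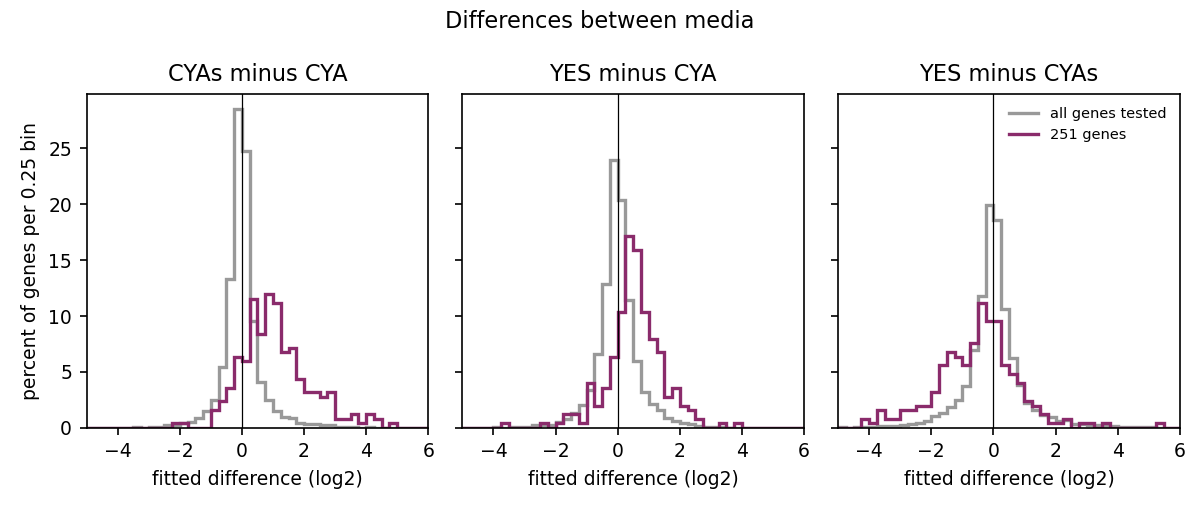
Fitted differences between media (horizontal axis, log2) as the percent of genes per 0.25 bin (vertical axis) for the 251 genes and for all 11109 genes tested. The 251 genes lie mostly above 0 for CYAs minus CYA (median 0.95) and YES minus CYA (median 0.53) and have a long lower side for YES minus CYAs (median -0.42), with 0 genes called in any contrast.

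The genes with the smallest p in each contrast, none of which passed, show what such a difference looked like. AN5312 stood at 12.72, 11.29 and 11.47 on CYAs, 11.32 and 9.55 on YES, and 10.03, 8.28 and 8.07 on CYA, with no overlap between CYAs and CYA. Its difference was 3.03 (SE 0.20, limma adjusted p = 0.117). AN2547 stood at 14.18, 13.54 and 12.03 on CYAs and 10.67, 10.49 and 9.41 on CYA, a difference of 3.06 (SE 0.22, limma adjusted p = 0.117). AN8928 was higher by 2.90 (SE 0.30, limma adjusted p = 0.242) on CYAs and by 2.36 (SE 0.35, limma adjusted p = 0.398) on YES than on CYA. AN10343 stood at 13.23 and 10.45 on YES and at 9.16, 6.91 and 7.10 on CYA, a difference of 3.97 (SE 0.45, limma adjusted p = 0.398). AN1993 was higher on YES by 1.40 (SE 0.19, limma adjusted p = 0.398) than on CYA and by 1.47 (SE 0.19, limma adjusted p = 0.183) than on CYAs. Higher on YES than on CYAs were also AN5430 by 3.64 (SE 0.31, limma adjusted p = 0.143) and AN0878 by 2.78 (SE 0.38, limma adjusted p = 0.192).

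Lists of genes for growth, metabolism and development were set beside the 251 genes, by locus tag or symbol. Across 9 glycolysis, 9 wall polysaccharide synthase, 6 cytoskeleton, 5 mitosis and 8 ribosomal protein genes, 0 belonged to the list. At the 2.26% share of all genes so small a set would hold about 0 or 1, so this count says nothing about these groups. The glycolysis genes had medians of -1.04, -0.76 and -0.68 on CYAs, YES and CYA, with 6, 3 and 3 of 9 at -1 or lower, where all genes had 6.44%, 12.4% and 10%. Their difference between media was not tested. The glyceraldehyde-3-phosphate dehydrogenase gene gpdA (AN8041) differed by -1.27, -0.76 and -1.79. The ribosomal protein genes, which make up the machinery of translation, had medians of -0.26, -0.03 and -0.34, and 1 of 8 was at -1 or lower on CYA (rps0, -1.34). The wall synthases had medians of -0.21, -0.68 and 0.07, and the medians of the cytoskeleton and mitosis genes lay between -0.57 and 0.23, with 1 cytoskeleton gene at -1 or lower on YES (AN6838, -1.75) and 1 mitosis gene on CYA (nimE, -1.09). Of the 9 wall synthases 1, 3 and 2 were at -1 or lower on CYAs, YES and CYA. Among these, ags1 (AN3307), named for alpha-glucan synthase, differed by -2.86, -0.41 and -2.56, and ags2 (AN5885) by -0.53, -3.88 and -1.43.

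Of 7 genes of nitrate and ammonium use, 5 were at -1 or lower on CYAs and 5 on CYA, but 1 on YES, and niiA was the only member. Of 7 siderophore and iron genes, 6 were at -1 or lower on YES and 1 each on CYAs and CYA. Among them mirB (AN8540), for a siderophore transporter, was at -6.13 on YES, -0.40 on CYAs and -2.60 on CYA. Of the 21 measured genes of the sterigmatocystin cluster, whose product is a mycotoxin related to aflatoxin, 21 were at -1 or lower on YES and on CYA, and 0 on CYAs, where their median was 0.35. The conidium markers rodA and dewA, which encode hydrophobins of the spore coat, were lower by 7.48 and 6.59 on YES and by 5.49 and 6.25 on CYA, and differed by -0.08 and 0.13 on CYAs. They had the largest differences of the 7 conidium markers on YES and CYA. Of the 7, 6 were at -1 or lower on YES and 3 on CYA, where yA and abaA were higher by 0.20 and 0.59. Genes that were much lower with age in 1 or 2 media are therefore outside the list, and CYAs had the fewest genes at -1 or lower, 717 against 1380 on YES and 1115 on CYA. The 3 comparisons of day 10 with day 4 use separate arrays and share no samples.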

How the data were processed

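The members, the gene lists and the settings were chosen with earlier results of these data known. Scanner intensity values of 1-colour (Cy3) arrays were made with Agilent Feature Extraction 10.5.1.1, per the file headers. The authors' deposited table holds a log2 value for each gene and array. Limma and RMA appear in the submitters' processing notes without a role. Its columns share a maximum of 19.22 and correlated at 0.962 to 0.977 with log2 processed signals, so it was read as uncentred log2 signal of single arrays, and its background correction and normalization are unknown. It was the main source because the rule uses it, and the scanner values were alternatives.

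Samples were grouped by medium with day as a factor. Replicate numbers only name arrays. Limma 3.58.1 in R 4.3.3 (lmFit, eBayes) tested media on the 11109 genes with at least 1 probe well above background on at least 2 arrays, with 3 residual degrees of freedom and Benjamini-Hochberg adjustment. Nothing states that cultures were replicated, so p-values measure only the spread between these arrays, which holds any interaction of medium and day. On simulated data of CYAs against CYA (11109 genes), the fit recovered 57.5% of genes shifted by 2 and 82.5% of those shifted by 4. The simulated noise was independent between arrays, with no slide effect, whereas the estimated slide correlation of the data was 0.745. It also took each gene's residual SD, from 3 degrees of freedom, as the true one. These rates therefore need not hold for the real contrast. Symbols, chromosomes and gene order came from the RefSeq table of assembly ASM1142v1, and no source used here names the build behind the probes. Genes were named where they had a symbol, where their smallest difference of the 3 media was among the 10 largest or their day 4 signal highest, at the threshold, in runs of at least 3, at the extremes of day 8 or of the medium tests, or where their profile departed most. Others were named after their values were seen.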

Additional observations from a re-analysis of the deposited data

Results flagged for a closer look

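In 4 of the 251 genes, day 8 minus day 4 went in opposite directions on CYAs and on CYA by at least 0.5 (log2) each, and with 1 array per medium and day the difference between the media was not tested. AN3226 was higher on day 8 on CYAs (0.58) and lower on CYA (-3.72). AN4913 was lower on CYAs (-1.86) and higher on CYA (2.33), AN6301 was at -1.58 and 0.95, and AN0362 at -0.89 and 0.88. Over genes high on CYA day 8, the CYAs day 8 signal was a median 0.219 of it, and the part of this in these values was not tested.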

How the results depend on the processing

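The number of genes that met the rule was 131 at a threshold of -1.5, and 378 with CYAs and YES alone, whose arrays of days 4 and 10 lie on 1 slide each (an alternative chosen after seeing the data). Both follow from the construction, a stricter and a looser condition. It lay between 220 and 376 under the other alternatives (scanner values in 2 normalizations, a threshold of -0.8, a filter on background, CYAs and CYA alone). At a threshold of -0.5, 186 genes were lower on CYAs day 8. Limma called 0 members in every medium contrast under each of the 14 alternatives, leaving out each array in turn included (0 to 0), and over all genes it called 1, for YES against CYAs, in scanner values scaled to the 75th percentile. The 14 alternatives are not separate checks, because leaving out either day 8 array gave the same fit as days 4 and 10 alone. Fits with an array left out kept 2 residual degrees of freedom, so a call was harder to reach there. The members' median ranged from 0.59 to 1.17 for CYAs against CYA, from 0.31 to 0.76 for YES against CYA and from -0.71 to 0.03 for YES against CYAs. It was 0.60, 0.70 and 0.03 in this order with slide as a block, and -0.25 for YES against CYAs without either day 8 array. For YES against CYA it was 0.33 without either day 8 array and 0.31 without YES day 4. Scaling to the 75th percentile moved the median of all genes for day 10 minus day 4 to 0.26 on CYAs, -0.11 on YES and 0.13 on CYA, and the members' medians were then -1.98, -2.91 and -2.62. No paired analysis was possible because the labels give no replicate numbers, though the fits match media by day.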

Other observations

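In 15 of the 251 genes the probes disagreed in direction in at least 1 medium, in scanner values scaled to each array's 75th percentile, a group noticed after the values were seen. In 10 of the 15 the smallest difference was at the probe nearest the start of the transcript, by the positions in the probe names. For AN7894 the probe at bases 1 to 60 differed by 0.63, -1.18 and 0.47 between days 4 and 10 on CYAs, YES and CYA, while the probe at bases 248 to 307 differed by -5.57, -7.60 and -9.78. For AN8544 the odd probe was the last, at bases 786 to 845, with 1.92, -1.38 and 1.05, against -6.58, -8.84 and -4.84 at bases 370 to 429. This AN8544 probe was dim, at -7.51 on CYAs day 4 against 3.48 at bases 370 to 429 (log2, scaled to the 75th percentile). The odd AN7894 probe was bright, at 6.56 against 0.31 at bases 248 to 307 on the same array. The part of probe level in the disagreement was not tested. The level printed for such a gene therefore depends on how its probes were summarised. Across the 243 members with 3 usable probes there was no common direction, with the smallest difference at the probe nearest the start in 107, at the middle probe in 42 and at the probe nearest the end in 94.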
